A study of Mus musculus with 2 samples.

Results

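Near-end gene-body peaks are H4K16ac peaks that lie inside a protein-coding gene, just inward of its start or its 3′ end. A peak was a member if its summit lay inside a protein-coding gene, more than 1 kb from every end of a protein-coding gene and at most 10 kb from the nearest end of its host gene. Only peaks with a −log10 q under 10 were taken, q being the false discovery rate that the authors' peak caller gave each peak. The rule chose 9528 of the 55149 peaks of the KAT8-deficient library and 10325 of the 58229 peaks of the wild-type library. They lay in 6752 and 7159 host genes. A further 81 KAT8-deficient and 112 wild-type peaks met the rule on position but had a −log10 q of at least 10.

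Acetylation of lysine 16 of histone H4 was mapped by CUT&Tag, in which an antibody brings a transposase to the modified histone and the tagged DNA is sequenced. The cells were bone marrow-derived macrophages, which were grown from mouse marrow in M-CSF, their survival factor, at 20 ng/ml. Cells of both genotypes received R848 at 100 ng/ml for 2 h, so neither library shows unstimulated cells. The 2 libraries were 1 of KAT8-cKO genotype, named KAT8-deficient in the protocols, and 1 of WT genotype. The sources used here do not give the driver of the deletion, the strain, sex or age of the mice, or whether animals were pooled, and a peak list does not measure how complete the deletion was. With 1 library per genotype no difference could be tested, and every interval below is a 95% interval that covers counting error alone.

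H4K16ac loosens the packing of nucleosomes and is found at active promoters, over the bodies of transcribed genes and at some enhancers. KAT8, also called MOF, is the acetyltransferase that places most of it in mammalian cells, as the catalytic subunit of the MSL and NSL complexes. R848 is a small synthetic agonist of TLR7, a receptor in the endosome that signals through MyD88 to NF-kB and induces inflammatory genes within hours. The first kilobases of a gene can hold further promoters, for shorter transcripts that begin inside the gene, and enhancers within introns.

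Nearly 10% of members lay within 1 kb of a transcription start marked by RefSeq, which could itself lie closer than 1 kb to a gene end. Of the KAT8-deficient members 920 (9.66%), and of the wild-type members 1018 (9.86%), had an annotated start within 1 kb of the summit, either of the host or of another gene, non-coding genes included. The promoter windows of 4 such starts, each of the host itself, are shown because members near such starts were overlapped by the other list more often than the rest. They were picked after the values were seen, an overlapped and a non-overlapped member from each list. Each window runs from 250 bases before the start to 50 after it (RefSeq, GRCm38.p6, the assembly behind mm10), is written 5′ to 3′ on the strand of the gene, and has its CpG dinucleotides in capitals.
Tsga10, chr1:37865033-37865332, minus strand: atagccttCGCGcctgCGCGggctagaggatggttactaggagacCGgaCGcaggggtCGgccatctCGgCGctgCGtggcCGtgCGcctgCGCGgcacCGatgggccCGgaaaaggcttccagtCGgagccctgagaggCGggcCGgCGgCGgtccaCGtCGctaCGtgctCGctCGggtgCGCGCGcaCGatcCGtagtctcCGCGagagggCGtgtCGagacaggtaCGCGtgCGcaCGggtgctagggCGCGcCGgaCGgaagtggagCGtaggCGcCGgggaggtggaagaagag
Obp2b, chr2:25736757-25737056, plus strand: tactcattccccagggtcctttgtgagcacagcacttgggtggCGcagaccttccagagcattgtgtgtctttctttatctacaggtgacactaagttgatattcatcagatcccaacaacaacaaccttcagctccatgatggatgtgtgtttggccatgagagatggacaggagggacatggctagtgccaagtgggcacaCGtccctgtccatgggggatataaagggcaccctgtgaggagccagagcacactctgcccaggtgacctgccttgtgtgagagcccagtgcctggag
Adh5, chr3:138442843-138443142, plus strand: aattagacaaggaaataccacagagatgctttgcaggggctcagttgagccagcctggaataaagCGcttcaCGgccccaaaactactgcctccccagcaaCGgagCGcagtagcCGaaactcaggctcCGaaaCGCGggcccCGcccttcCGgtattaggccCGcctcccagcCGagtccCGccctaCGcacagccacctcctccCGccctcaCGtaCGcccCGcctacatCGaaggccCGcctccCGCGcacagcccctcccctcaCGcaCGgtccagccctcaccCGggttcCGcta
Pfkfb4, chr9:108991652-108991951, plus strand: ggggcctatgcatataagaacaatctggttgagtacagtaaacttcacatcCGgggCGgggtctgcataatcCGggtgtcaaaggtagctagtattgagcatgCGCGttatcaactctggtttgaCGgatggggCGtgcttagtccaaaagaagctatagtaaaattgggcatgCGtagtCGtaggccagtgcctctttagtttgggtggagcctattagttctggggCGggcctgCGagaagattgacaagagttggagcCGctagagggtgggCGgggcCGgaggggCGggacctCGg

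Tsga10, named for its expression in testis, had a KAT8-deficient peak 64 bp from the start shown, 4.84-fold over background as the peak caller estimated it, at −log10 q 8.92. The wild-type peak that overlapped it was 6.55-fold over background, at −log10 q 17.7. Its window held 46 CpG, an observed count 1.26 times that expected from its C and G content. Obp2b, which encodes an odorant-binding protein, had a KAT8-deficient peak (fold 4.27, −log10 q 4.74) which no wild-type peak overlapped, and its window held 2 CpG, 0.0940 times the expected number. In Adh5, the enzyme that clears formaldehyde bound to glutathione, the fold was 3.65 for the KAT8-deficient and 5.27 for the wild-type peak, and −log10 q was 3.56 and 9.75. The Adh5 window held 26 CpG. Pfkfb4, which sets the level of the glycolytic activator fructose 2,6-bisphosphate, had a wild-type peak that no KAT8-deficient peak overlapped (fold 3.96, −log10 q 7.02) and a window with 16 CpG. Folds and q-values here and below are the authors' own for each list. Sequencing depth and noise enter them, so they rank peaks inside a list and measure no change between libraries.

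Most members were weak and narrow. Their folds had a median of 2.66 (1.35 to 5.72) in the KAT8-deficient list and 2.72 (1.38 to 6.07) in the wild-type list, and their median widths were 279 and 286 bp. A q-value under 0.05 was reached by 39.7% of the KAT8-deficient members and 41.5% of the wild-type members, against 46.96% and 46.9% of all peaks in those lists. A host gene held 1 member in 4661 of 6752 cases in the KAT8-deficient list and in 4809 of 7159 cases in the wild-type list, and no gene held more than 7 in a list. Directly at the limit on strength, the strongest KAT8-deficient members were in Sp140 (−log10 q 9.99) and Mmadhc (9.93), and the nearest peaks left out were in Xkrx (10.03) and Pnisr (10.04). In the wild-type list the strongest members were in Gsdma2 (9.98) and Pisd (9.84), and the nearest peaks left out were in Tmem267 and AB010352 (10.05 each).

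The marks at cell type genes were checked by asking for any peak in the gene or within 1 kb of it. Of 9 macrophage markers, 7 had a peak in the KAT8-deficient list and 8 in the wild-type list. Csf1r, Adgre1, Cd68, Itgam, Mertk, Spi1 and Cd14 were in both, Fcgr1 in the wild-type list alone, and Lyz2 in neither. Genes of other cells had peaks too: 2 and 3 of 5 T cell markers, 1 and 2 of 4 B cell markers, 1 and 1 of 4 neutrophil markers (S100a8), and 3 and 3 of 4 fibroblast markers (Col1a1, Dcn and Pdgfra), with the KAT8-deficient count given before the wild-type count each time. In sum 7 and 9 of 17 markers of other cells had a peak. Of all 21883 protein-coding genes, 62.7% had such a peak in the KAT8-deficient list and 65.3% in the wild-type list, so a peak at a marker does not set cell types apart.

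Near-end members were overlapped by the other list slightly less often than all peaks were. A wild-type peak covered at least 1 bp of 2863 of 9528 KAT8-deficient members, 30.0% (29.1 to 31.0), against 34.8% of all KAT8-deficient peaks under the same limit on q and 35.6% without it. A KAT8-deficient peak covered 2807 of 10325 wild-type members, 27.2% (26.3 to 28.1), against 31.8% and 33.2%. The remaining members had no overlapping peak in the other list, as was so for 65.2% of KAT8-deficient and 68.2% of wild-type peaks under that limit. Where there was an overlapping peak, it was itself a near-end member in 94.1% of KAT8-deficient and 95.5% of wild-type cases. Across those overlapping pairs the −log10 q of the KAT8-deficient peak and that of the wild-type peak went together only loosely (Spearman's rank correlation 0.411 over 2863 KAT8-deficient members and 0.392 over 2807 wild-type members, given as a description).

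Overlap fell steeply with strength, so members were set beside other peaks of the same strength. By −log10 q, each list was split into 10 groups of equal size, called deciles below. In the strongest decile 445 of 534 KAT8-deficient members (83.3%, 79.9 to 86.3) and 439 of 551 wild-type members (79.7%, 76.1 to 82.8) were overlapped. The next decile gave 51.0% of KAT8-deficient and 49.8% of wild-type members. By the fifth decile the shares were 29.3% and 26.3%, and in the weakest they were 17.6% and 13.8%. Few members stood in the strongest decile, 534 and 551, while the weakest held 1078 and 1146.

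**Figure D1:**
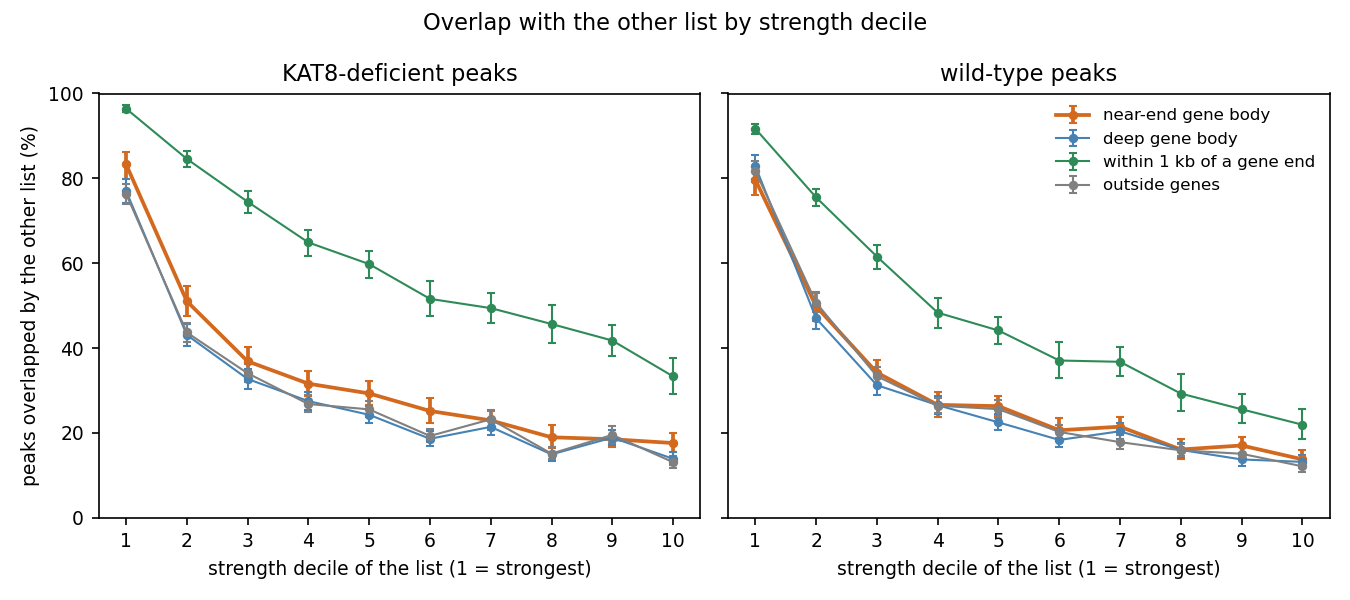
Share of peaks (%, vertical axis) overlapped by a peak of the other list, by strength decile within each list (horizontal axis, 1 strongest), for KAT8-deficient peaks on the left and wild-type peaks on the right. Lines stand for 4 positions of the summit, all with a −log10 q under 10, and bars are 95% Wilson intervals. Near-end members run from 83.3% to 17.6% (KAT8-deficient) and from 79.7% to 13.8% (wild-type), close to the deep gene-body and intergenic lines and well under the line for gene ends.

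Within deciles, near-end members resembled peaks deeper in genes and peaks outside genes, and differed from peaks at gene ends. They were overlapped more often than peaks over 10 kb inside a gene in 9 of 10 deciles of either list, with differences of −0.38 to 7.95 percentage points in the KAT8-deficient list and −3.20 to 3.82 in the wild-type list. Weighted to the members' own spread over the deciles, the shares of deep peaks were 26.3% (25.6 to 26.9) and 25.5% (24.9 to 26.1) in the KAT8-deficient and wild-type lists. Peaks outside genes gave 26.8% (26.2 to 27.4) and 26.2% (25.6 to 26.8). Peaks within 1 kb of a gene end gave 56.8% (55.7 to 57.9) and 43.4% (42.3 to 44.6), above the members in all 10 deciles of each list. The interval of all members lay above that of deep peaks in both lists, and peaks were counted as independent in these intervals. This was not so for members with no annotated start within 1 kb, which stood at 26.5% (25.6 to 27.5) and 24.2% (23.3 to 25.1), KAT8-deficient before wild-type. Those shares are not weighted by decile, and deep peaks near such starts were not left out in turn.

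Members on the start side of their host were overlapped more often than members on the 3′ side. Strand was read from RefSeq starts, which 17491 of the 21883 protein-coding genes had, and hosts without one were kept apart. On the start side, 1339 of 3655 KAT8-deficient members (36.6%, 35.1 to 38.2) and 1315 of 4045 wild-type members (32.5%, 31.1 to 34.0) were overlapped. On the 3′ side the counts were 988 of 3981 (24.8%, 23.5 to 26.2) for KAT8-deficient and 968 of 4174 (23.2%, 21.9 to 24.5) for wild-type members. The start side was higher in 10 of 10 deciles of each list. Members in hosts of unknown strand, 1892 and 2106, were overlapped at 28.3% in the KAT8-deficient and 24.9% in the wild-type list.

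Much of that difference lay near annotated starts within 1 kb of the summit, called internal starts here. Only the summit had to be over 1 kb from gene ends, so such a start could itself lie closer to one. Members with such a start within 1 kb were overlapped at 63.0% (59.9 to 66.1) in the KAT8-deficient and 54.5% (51.4 to 57.6) in the wild-type list, and the rest at 26.5% (25.6 to 27.5) and 24.2% (23.3 to 25.1). The 2 groups also differed in strength, with median −log10 q values of 1.41 and 1.67 near such starts against 1.01 and 1.18 elsewhere, KAT8-deficient before wild-type. With these members left out, the start side stood at 28.6% (26.9 to 30.2) and the 3′ side at 24.3% (23.0 to 25.6) in the KAT8-deficient list. In the wild-type list the sides then stood at 25.7% (24.2 to 27.2) and 22.8% (21.5 to 24.1). The start side was still higher in 9 of 10 KAT8-deficient and 8 of 10 wild-type deciles. Within 1 kb of the end of a non-coding gene or pseudogene lay 422 and 438 members, overlapped at 42.9% in the KAT8-deficient and 40.9% in the wild-type list.

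Peaks were denser near gene ends than deeper in genes. Per megabase of gene that could hold a member, the KAT8-deficient list had 39.1 near-end peaks (38.3 to 39.9) and the wild-type list 42.4 (41.6 to 43.2). Over 10 kb from both ends of the host, the densities were 21.4 and 22.2 peaks per Mb. Such deep bases exist only in hosts over 20 kb, while the near-end densities pool hosts of all lengths. In hosts of at least 100 kb the near-end densities were 29.1 and 31.4 per Mb, so part of the contrast goes with host length. On the start side, density was highest at 1 to 2 kb, with 62.9 KAT8-deficient and 64.0 wild-type peaks per Mb, lowest at 4 to 5 kb, with 28.7 and 33.1, and stood at 32.1 and 37.4 at 9 to 10 kb. On the 3′ side it declined more evenly, with 50.5 and 48.9 peaks per Mb at 1 to 2 kb and 33.7 and 38.4 at 9 to 10 kb. Around annotated internal starts on the start side there were 159 KAT8-deficient peaks per Mb (148 to 171) and 174 wild-type peaks per Mb (163 to 186), and away from them 31.0 (29.9 to 32.2) and 34.5 (33.3 to 35.7). Without the bases near internal starts, the density at 1 to 2 kb on the start side was 44.3 in the KAT8-deficient and 43.6 in the wild-type list.

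**Figure D2:**
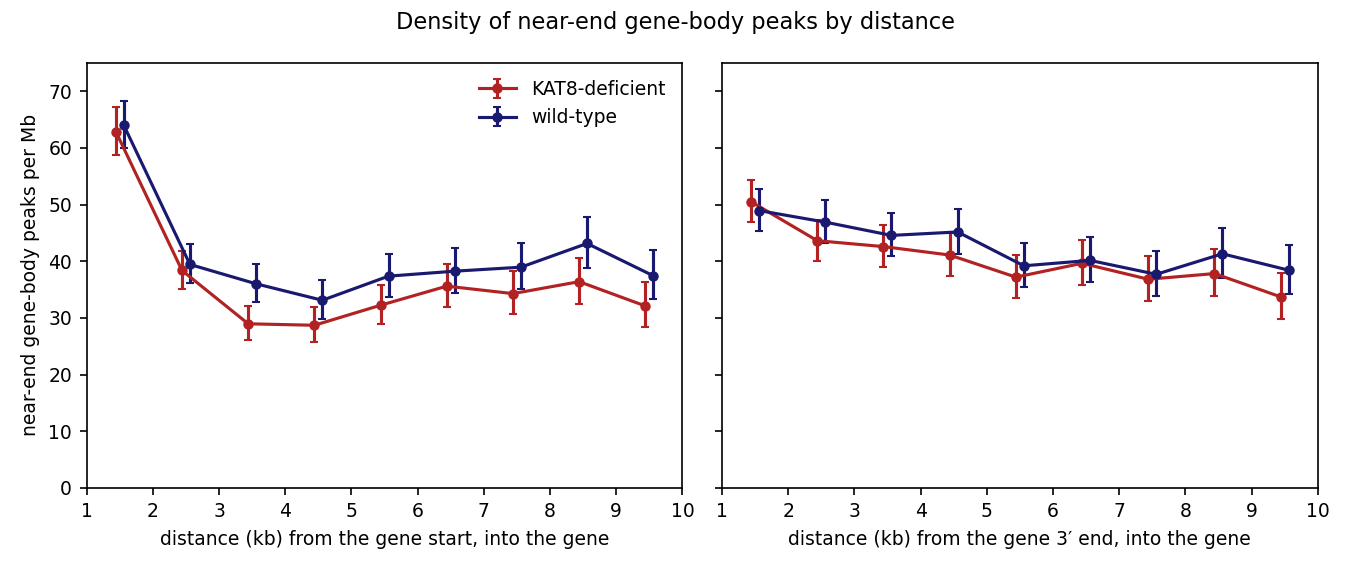
Near-end gene-body peaks per Mb of eligible gene (vertical axis) in 1 kb steps of distance (horizontal axis, kb) from the gene start (left) and from the 3′ end (right), for hosts of known strand. Red points are KAT8-deficient, dark points wild-type, and bars are exact 95% Poisson intervals. Both lists peak at 1 to 2 kb from the start (62.9 and 64.0 per Mb) and dip at 4 to 5 kb (28.7 and 33.1).

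Genes whose own start carried a peak had denser members on the 3′ side and less overlap on the start side. A start was counted as marked if any peak of the same list lay within 1 kb of it. On the 3′ side, KAT8-deficient peaks stood at 48.3 per Mb (46.3 to 50.5) in genes with a marked start and 35.3 (33.8 to 36.9) in the others. Wild-type peaks stood at 51.4 (49.3 to 53.5) and 35.4 (33.8 to 37.1). On the start side the densities were 36.2 and 38.8 KAT8-deficient peaks per Mb, and 41.2 and 42.1 wild-type peaks per Mb, in genes with marked and unmarked starts in that order. Start-side members in genes with a marked start were overlapped at 31.3% (29.1 to 33.7) in the KAT8-deficient and 29.8% (27.8 to 31.9) in the wild-type list. In genes with an unmarked start the shares were 40.6% (38.5 to 42.8) and 35.0% (33.0 to 37.0). Away from annotated internal starts, start-side overlap in genes with marked and unmarked starts was 27.9% and 29.2% in the KAT8-deficient list, and 26.9% and 24.2% in the wild-type list.

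Internal start windows under members were rich in CpG. There were 2352 annotated starts in 1938 genes that lay where a member could be. Each of these starts itself lay over 1 kb from gene ends, which is a stricter rule than that for the internal starts above. A member of both lists covered part of the window at 354 of them, a KAT8-deficient member alone at 147, a wild-type member alone at 243, and neither at 1608. Only members were counted here, so stronger peaks could lie over any of these windows. The start in Lig4 counts as under a KAT8-deficient member alone, though the overlapping wild-type peak had a −log10 q of 12.6. The median ratio of observed to expected CpG was 0.806 under members of both lists, 0.729 under KAT8-deficient members alone, 0.733 under wild-type members alone and 0.337 at starts without a member, against 0.567 over all 21262 starts of protein-coding genes.

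**Figure D3:**
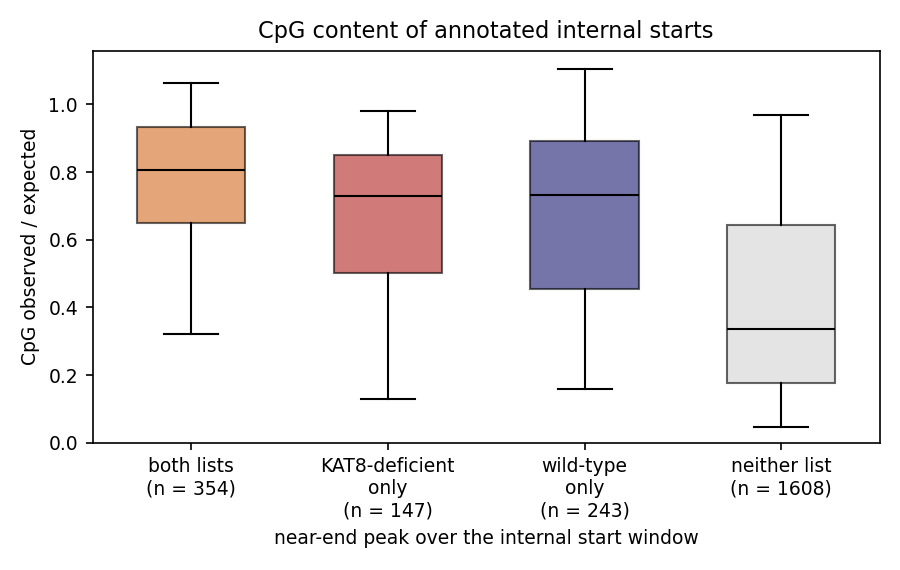
Ratio of observed to expected CpG (vertical axis) in the 300-base windows of annotated internal starts that lay where a member could be. They are grouped by which list had a near-end member (−log10 q under 10) over the window (horizontal axis), and stronger peaks are not counted. Boxes span the quartiles with the median as a line, and whiskers run to the 5th and 95th percentiles. Medians are 0.806, 0.729, 0.733 and 0.337 from left to right.

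The motifs searched in these windows did not all follow the order of CpG. GGGCGG, the box bound by SP1 family factors, was found on either strand in 71.2% of windows under members of both lists, 56.5% under KAT8-deficient members alone, 60.1% under wild-type members alone and 33.0% without a member, and in 46.2% of all starts. CCGGAAG, an ETS family motif, was in 20.3%, 14.3%, 16.05% and 4.48% of those windows, and in 11.6% of all starts. TGANTCA (N for any base), the site of AP-1 factors, was in 4.52%, 8.84%, 6.996% and 7.34%, and in 6.99% of all starts. TATAAA, the core of the TATA box, was in 4.24%, 6.80%, 6.996% and 12.3%, and in 12.6% of all starts. The windows differ in CpG and base composition, a match is only a run of letters, and matches of different motifs that share letters were kept. Of the windows printed above, those of Adh5 and Pfkfb4 hold GGGCGG, that of Adh5 holds CCGGAAG and that of Obp2b holds TATAAA.

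Fewer near-end peaks of the KAT8-deficient list passed strict thresholds. With −log10 q at 5 or more, there were 213 KAT8-deficient and 316 wild-type members, a ratio of 0.674 (0.567 to 0.802), while over all members the ratio was 0.923 (0.898 to 0.949). On the start side 115 KAT8-deficient and 193 wild-type members passed, a ratio of 0.596 (0.473 to 0.751), and on the 3′ side 58 and 67, a ratio of 0.866 (0.609 to 1.23). Near annotated internal starts the counts were 68 and 127, a ratio of 0.535 (0.399 to 0.719), and elsewhere 145 and 189, a ratio of 0.767 (0.618 to 0.953). The intervals of these pairs of ratios overlap. Among other peaks under the same limit, the ratio was 0.807 deep in genes, 0.539 (0.497 to 0.584) within 1 kb of gene ends and 0.883 outside genes. With the threshold at 3, both sides of the gene had similar ratios, 0.676 on the start side and 0.698 on the 3′ side. Such counts also move with sequencing depth, which the peak lists do not give.

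Longer host genes had sparser members. Hosts under 10 kb had 48.8 KAT8-deficient and 52.6 wild-type peaks per Mb, hosts of 20 to 50 kb had 39.4 and 43.3, and hosts of at least 100 kb had 29.1 and 31.4. Overlap was 29.5% (26.6 to 32.6) of KAT8-deficient and 26.0% (23.3 to 28.9) of wild-type members in hosts under 10 kb. In hosts of at least 100 kb it was 32.9% (30.3 to 35.5) and 29.4% (27.04 to 31.9), and those intervals overlap. The sides lay furthest apart in the longest hosts. In hosts of at least 100 kb the start side stood at 44.3% in the KAT8-deficient and 38.3% in the wild-type list, and the 3′ side at 22.1% and 21.3%. In hosts under 10 kb, where the sides lie close together on the gene, the start side stood at 33.2% and 30.0% and the 3′ side at 26.8% and 22.7%. The gap did not widen at every step of length, and in hosts of 20 to 50 kb the sides stood at 34.7% and 25.7% in the KAT8-deficient list and at 30.8% and 23.9% in the wild-type list. Among genes with bases where a member could lie, 15.2% and 16.4% of those under 10 kb had a member, KAT8-deficient before wild-type. The shares were 46.7% and 48.4% for such genes of 20 to 50 kb, and 36.4% and 38.0% for those of at least 100 kb.

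**Figure D4:**
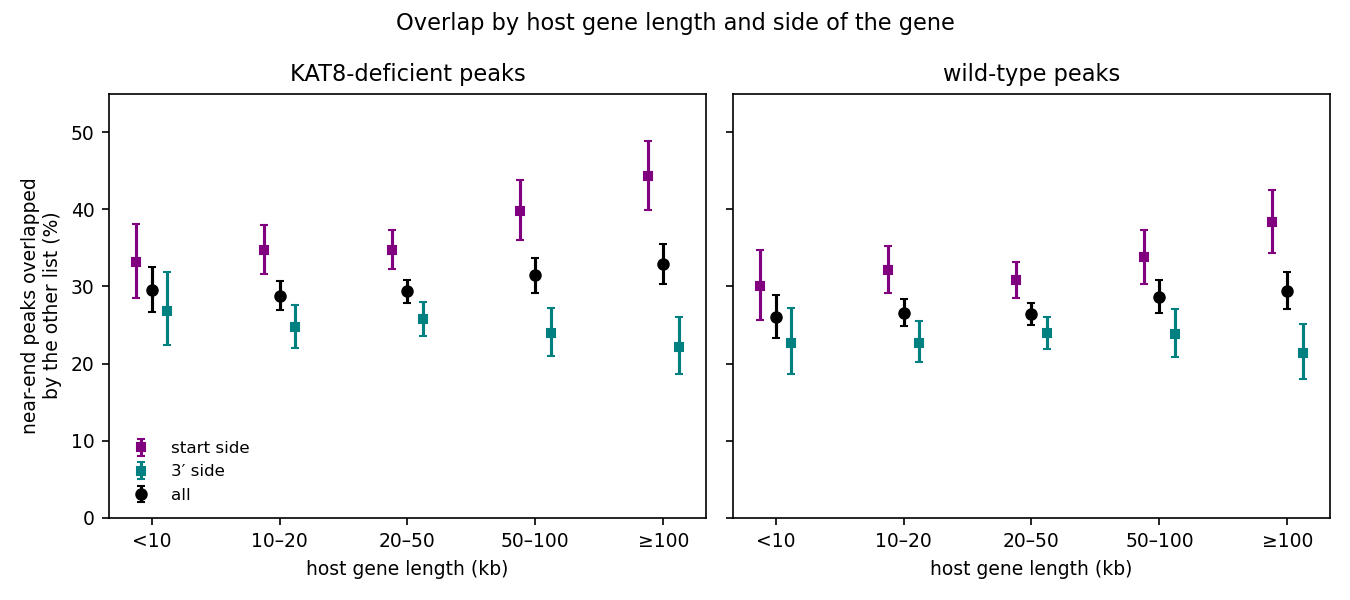
Share of near-end members (%, vertical axis) overlapped by the other list, by host gene length (horizontal axis, kb), for the KAT8-deficient list on the left and the wild-type list on the right. Black points are all members, purple squares the start side, teal squares the 3′ side, and bars are 95% Wilson intervals. The start side reaches 44.3% (KAT8-deficient) and 38.3% (wild-type) in hosts of at least 100 kb, where the 3′ side stands at 22.1% and 21.3%.

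Host genes were common to the lists more often than peaks were, but a gene can hold several members over many more bases than a peak. The shares of genes and of peaks are thus not on one scale. Of 19243 protein-coding genes with bases where a member could lie, 6752 (35.1%) had a KAT8-deficient and 7159 (37.2%) a wild-type member. Both lists had one in 4339 genes (22.5%), the KAT8-deficient list alone in 2413 (12.5%), the wild-type list alone in 2820 (14.7%) and neither in 9671 (50.3%). Thus 64.3% (63.1 to 65.4) of KAT8-deficient hosts were also wild-type hosts, and 60.6% (59.5 to 61.7) of wild-type hosts also KAT8-deficient hosts. In 2394 of the 4339 common hosts a KAT8-deficient member was overlapped by a wild-type peak, whether or not that peak was a member. In the remainder no KAT8-deficient member was overlapped by a wild-type peak. Genes with a peak at an end in both lists were hosts more often, at 41.1% for KAT8-deficient and 43.3% for wild-type members, than genes with a peak at an end in neither, at 27.4% and 29.2%.

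The X chromosome held few members in either list. There were 27 KAT8-deficient and 61 wild-type members, 2.70 (1.78 to 3.93) and 6.10 (4.67 to 7.84) per Mb, against 40.8 and 44.1 per Mb on the autosomes. KAT8-deficient over wild-type members gave a ratio of 0.443 (0.281 to 0.696) on the X and 0.925 (0.900 to 0.952) on the autosomes. Of the X-linked members, 15 of 27 KAT8-deficient (55.6%, 37.3 to 72.4) and 13 of 61 wild-type (21.3%, 12.9 to 33.1) were overlapped. Other X-linked peaks had ratios of 0.896 (0.632 to 1.27) deep in genes, 0.629 (0.493 to 0.803) at gene ends and 0.888 (0.776 to 1.02) outside genes. Peaks at these other positions were also few on the X. In the KAT8-deficient list they were 60 of 15934 deep, 105 of 9349 gene-end and 403 of 19595 outside genes. The wild-type counts were 67 of 16559, 167 of 9784 and 454 of 20374 in that order. On the Y chromosome lay 8 KAT8-deficient and 6 wild-type members, 6.44 (2.78 to 12.7) and 4.83 (1.77 to 10.5) per Mb, with 4 overlapped in each list. The sex of the cells is not given and was not tested.

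The strongest overlapped members lay in genes of varied function. Mmadhc, a protein of vitamin B12 handling, had a fold of 5.72 in the KAT8-deficient list and 9.71 in the wild-type list, at a −log10 q of 9.93 and 29.0. The annotated start 256 bp away was of another gene, and an end of a non-coding gene or pseudogene lay at the same distance. Pfdn4, a subunit of the prefoldin chaperone, had folds of 5.14 and 4.91 in the KAT8-deficient and wild-type lists. Ptcd1, which binds mitochondrial RNA, had a fold of 4.74 at a −log10 q of 9.62 in the KAT8-deficient list and of 2.34 at 0.77 in the wild-type list. The strongest members thus held pairs of matched and of very unequal strength. Among the strongest wild-type members, Slc25a54, of the mitochondrial carrier family, had a fold of 3.63 in the KAT8-deficient and 5.98 in the wild-type list. Tdrd7, a tudor domain protein of germ cell granules, had folds of 5.45 and 5.62, 89 bp from an annotated start. Gsdma2, of the pore-forming gasdermin family, had 4.15 and 6.07, and Pisd, which makes phosphatidylethanolamine in mitochondria, had 4.80 and 3.9, in the same order. The wild-type peak at Mmadhc and the KAT8-deficient peaks at Tdrd7 and Pisd were above the limit on strength.

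The strongest members without an overlapping peak had lower −log10 q values than the strongest with one in the same list. In the KAT8-deficient list they lay in Dach1, a transcription factor (fold 5.34, −log10 q 8.39, 1715 bp from the gene start), Bicc1, an RNA-binding protein (5.04 and 7.76), and Rpgrip1l, a protein of the ciliary transition zone (4.91 and 6.85). They were followed by Gm38510 (2.77 and 6.42) and by Akt2, a kinase of insulin signalling (3.85 and 5.56). In the wild-type list they lay in Tcea3, a transcription elongation factor (5.36 and 9.24), St6galnac1, a sialyltransferase (5.30 and 7.77), and A530032D15Rik (2.88 and 7.33). Pigo, an enzyme of GPI anchor synthesis (4.44 and 7.18), had an annotated start 56 bp away, and Arhgef10 is an activator of small GTPases (4.80 and 7.09).

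A cluster on chromosome 1 supplied 4 of the 5 genes with most members. Sp140, a nuclear body protein that reads chromatin, held 7 KAT8-deficient and 7 wild-type members, and C130026I21Rik, Gm7592 and Gm38510 held 6 or 7 in each list. The fifth gene, Sfi1 on chromosome 11, a protein of the centrosome, held 6 and 6 with median folds of 1.45 and 1.51. Between 85000000 and 86000000 on chromosome 1 (mm10) lay 50 KAT8-deficient and 47 wild-type members, overlapped at 60.0% (46.2 to 72.4) and 76.6% (62.8 to 86.4). Their median folds were low for their q-values, 2.38 at a −log10 q of 3.45 in the KAT8-deficient list and 2.61 at 4.19 in the wild-type list. The Sp100, Sp110 and Sp140 genes and the predicted genes beside them belong to a family with near-identical copies, reads between copies may be split or stacked in ways the sources do not give, and values at these genes, Gm2427 and A530032D15Rik included, are uncertain.

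Host genes were also read by class, with 21 classes given by name lists or symbol families. Against 39.1 KAT8-deficient and 42.4 wild-type members per Mb over all genes, the classes ran from 6.52 to 68.6 and from 6.16 to 105, and intervals are wide because most classes held fewer than 100 members. All counts below give KAT8-deficient members before wild-type members.

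**Figure D5:**
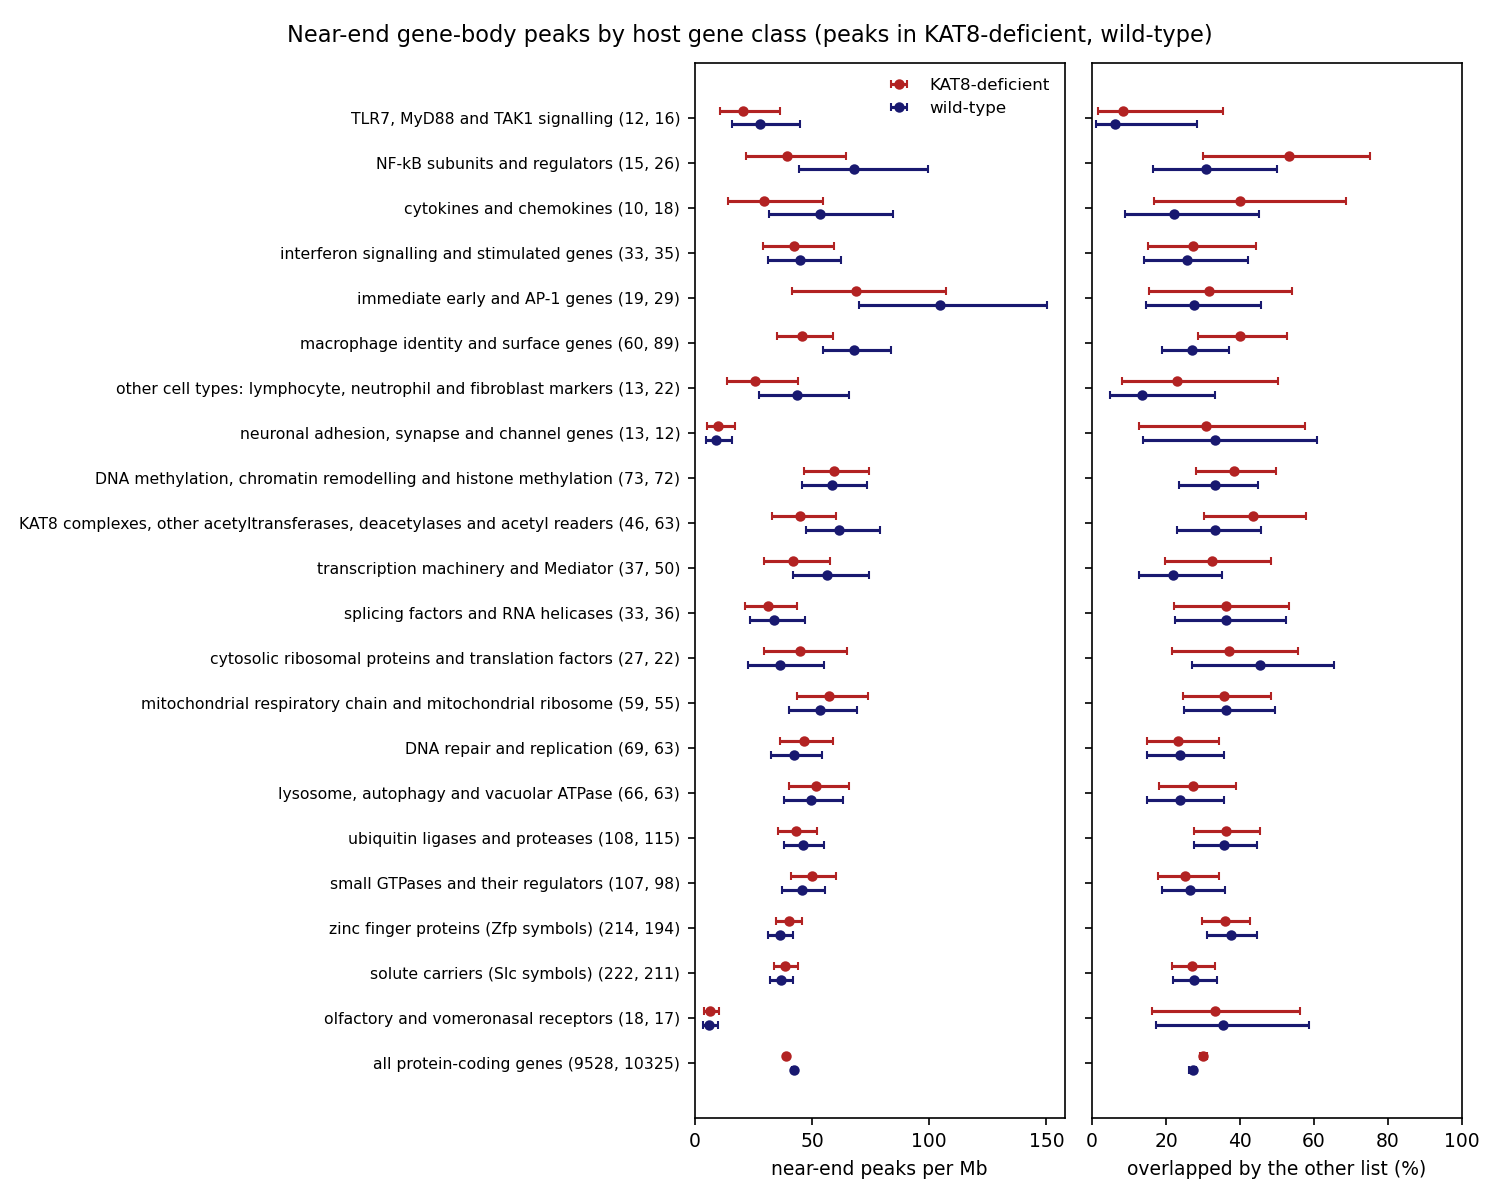
Density (left, peaks per Mb of eligible gene with exact Poisson intervals) and share overlapped by the other list (right, %, with Wilson intervals) of near-end members in 21 host gene classes and over all protein-coding genes. Red points are KAT8-deficient and dark points wild-type, and the counts of members stand in brackets in that order. Neuronal genes (9.91 and 9.14 per Mb) and olfactory and vomeronasal receptors (6.52 and 6.16 per Mb) lie left of all other classes.

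Genes of the TLR7, MyD88 and TAK1 pathway, which R848 engages, had lower member densities than all genes, but from few members. There were 12 KAT8-deficient and 16 wild-type members in 38 genes, at 20.7 (10.7 to 36.2) and 27.6 (15.8 to 44.9) per Mb. Over all genes the densities were 39.1 and 42.4 per Mb, and the wild-type interval holds 42.4. Of the 38 genes, 6 had a member in both lists and 21 in neither, against 22.5% and 50.3% of all genes with bases where a member could lie. In this pathway Tirap, an adaptor of surface Toll-like receptors, was the host of the 1 overlapped member of each list, with folds of 2.53 and 2.65. The strongest were 2 wild-type members that no KAT8-deficient peak overlapped, in Ikbkb, a kinase that releases NF-kB (fold 3.69, −log10 q 3.83), and in Irak2, a kinase of the MyD88 complex (3.71 and 3.65). Tlr7 itself had a wild-type member alone, at 3.18 and 1.65. Irak4, the kinase that starts the cascade, had a KAT8-deficient member alone, at 3.43 and 2.94.

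NF-kB subunits and regulators had 15 KAT8-deficient and 26 wild-type members in 28 genes, of which 8 and 8 were overlapped (53.3% and 30.8%), and 8 genes had one in both lists. The ratio of the counts was 0.577 (0.306 to 1.09). Tbk1, a kinase at the branch to interferon, had its strongest KAT8-deficient member 7637 bp inside the gene start (fold 4.55, −log10 q 8.77), overlapped by a wild-type member with 4.10 and 6.86. At Nfkb2, the p100 subunit, the overlapping members had folds of 2.50 and 4.33 at a −log10 q of 0.90 and 6.91 in the KAT8-deficient and wild-type lists, 243 bp from an annotated start. Tnfaip3 (A20), which ends NF-kB signalling, had a weak wild-type member alone (2.66 and 0.98), and Otulin, a deubiquitinase of linear chains, had one at 3.60 and 3.64.

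Cytokines and chemokines held 10 KAT8-deficient and 18 wild-type members, with 4 and 4 overlapped, and 4 genes of 41 had one in both lists. The strongest were wild-type members that no KAT8-deficient peak overlapped, in Ccl4, a chemokine (3.24 and 2.75), and Tgfb1, a growth factor that restrains inflammation (3.29 and 2.32). Tgfb1 also had a pair of overlapping members elsewhere, with folds of 2.53 and 2.48. Lif, a cytokine of the IL-6 family, had overlapping members at 2 places in its start side, with folds of 2.86 and 2.68 at the outer place and 2.27 and 2.73 at the inner. Il12a and Il12b, the subunits of interleukin 12, had a wild-type member each, with folds of 2.83 and 2.69.

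Interferon signalling and stimulated genes held similar numbers in both lists, 33 KAT8-deficient and 35 wild-type, with 9 and 9 overlapped (27.3% and 25.7%). Oas2, which makes the activator of RNase L, had a KAT8-deficient member alone (3.99 and 4.70), and Parp14, an ADP-ribosyltransferase, had overlapping members with folds of 2.2 and 3.51. Irf2, an interferon regulatory factor, had overlapping members near both its ends, with folds of 3.14 and 3.16 on the start side and 2.35 and 2.69 on the 3′ side.

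Immediate early and AP-1 genes are short, and had the highest density of any class, 68.6 KAT8-deficient (41.3 to 107) and 105 wild-type (70.1 to 150) members per Mb, from 19 and 29 members. Of these 6 and 8 were overlapped. Nr4a2, a nuclear receptor induced within minutes of stimulation, had overlapping members with folds of 4.41 and 2.98, and Batf, an AP-1 factor of immune cells, had folds of 2.79 and 3.44. Jund had a wild-type member alone (3.30 and 4.16), and Fosb had a member at different places in the lists, at 3.45 and 2.63.

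Macrophage identity and surface genes held 60 KAT8-deficient and 89 wild-type members, a ratio of 0.674 (0.486 to 0.935), and were the only class of the 21 whose interval of this ratio lay under 1. With 21 classes such an interval in 1 of them is no test, and the class was chosen with earlier results known. Both lists had a member in 30 of 94 genes, the KAT8-deficient list alone in 7 and the wild-type list alone in 22. In each list 24 members were overlapped, 40.0% (28.6 to 52.6) of the KAT8-deficient and 26.97% (18.8 to 37.0) of the wild-type members. Fcgr3, an activating receptor for antibody, had overlapping members with folds of 2.90 and 3.07 at a −log10 q of 4.66 and 5.99. Mertk, a receptor for the clearance of dying cells, had folds of 2.56 and 4.74, and Clec4d, a lectin that senses fungi and mycobacteria, 2.99 and 4.12. Csf1r, the M-CSF receptor, had members at different places, with folds of 2.18 and 3.09. Cx3cr1, the fractalkine receptor, had overlapping members at 3.93 and 2.65. Ptpn6, a phosphatase that restrains receptor signalling, had 2 wild-type members and no KAT8-deficient one, at 3.23 and 2.43, and Syk, a kinase of antibody and lectin receptors, had a KAT8-deficient member alone (2.56). Genes of other cell types, the lymphocyte, neutrophil and fibroblast markers, had 13 and 22 members, a ratio of 0.591 that is close to that of the macrophage genes, with 3 and 3 overlapped. The list for this class included Gata3, with folds of 2.91 and 4.44. It also held Klf1, with 3.60 and 3.74, which is not a marker of those cell types.

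KAT8 complexes, other acetyltransferases, deacetylases and readers of acetyl marks held 46 KAT8-deficient and 63 wild-type members, 43.5% (30.2 to 57.7) and 33.3% (23.0 to 45.6) overlapped. Kat8 had no KAT8-deficient member and a weak wild-type member on its 3′ side (fold 2.61, −log10 q 0.78), which says nothing of the deletion. Msl1, the scaffold of the MSL complex, had overlapping members with folds of 2.88 and 2.60. Of the NSL subunits, Kansl3 had members at different places, Kansl2 a KAT8-deficient member alone (2.58) and Kansl1 a wild-type member alone (2.69). Sin3a, the scaffold of a deacetylase complex, had folds of 2.48 and 4.19 at a −log10 q of 1.34 and 8.43, 61 bp from an annotated start. Kat6b, an acetyltransferase of the same family as KAT8, had a member with a fold of 3.92 near its start in the KAT8-deficient list, overlapped by a wild-type peak (5.26 and 13.2) above the limit on strength.

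Genes of DNA methylation, chromatin remodelling and histone methylation held 73 and 72 members at 59.2 and 58.4 per Mb, 38.4% of KAT8-deficient and 33.3% of wild-type members being overlapped. Dnmt1, the maintenance DNA methyltransferase, had folds of 3.14 and 4.89 at a −log10 q of 2.10 and 8.21, with an annotated start 24 bp from the wild-type summit. Kdm4c, a histone demethylase, had a KAT8-deficient member with a fold of 5.02, 114 bp from an annotated start, overlapped by a wild-type peak of 5.98 above the limit on strength. Kmt2e had overlapping members with folds of 4.11 and 4.34.

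Transcription machinery and Mediator genes had 37 and 50 members (32.4% and 22.0% overlapped), with Taf1 of TFIID at folds of 3.42 and 5.13 and Med23 at 4.06 and 4.51. Splicing factors and RNA helicases had 33 and 36 (36.4% and 36.1%), with Srsf4 at 5.08 and 4.55 and Ddx6 at 2.99 and 4.91. Ribosomal proteins and translation factors had 27 and 22 (37.0% and 45.5%), with Eif3b at 4.50 and 5.29 and Eef2k at 2.52 and 4.80. Of these 6 genes, Srsf4 had the higher fold in the KAT8-deficient list and the others in the wild-type list, each fold being relative to its own library. Respiratory chain and mitochondrial ribosome genes had 59 and 55 (35.6% and 36.4%), with Mrps27 at 4.27 and 4.77 and Uqcrc1 at 4.30 and 2.85. DNA repair and replication genes had 69 and 63, with overlap of 23.2% (14.8 to 34.4) and 23.8% (14.99 to 35.6), intervals that hold the shares of all members, with Lig4 at 4.22 and 6.04 and Poli at 3.86 and 4.64. Lysosome and autophagy genes had 66 and 63 (27.3% and 23.8%), with Vps33a at 4.52 and 6.22 and Nbeal1 at 4.63 and 7.08. The wild-type peaks at Eif3b, Lig4, Vps33a and Nbeal1 were above the limit on strength and so were not members.

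The largest classes had near-equal counts in the lists. Ubiquitin ligases and proteases had 108 and 115 members (36.1% and 35.7% overlapped), with Usp34 at 2.96 and 4.96 and Trim45 at 4.66 and 4.98. Small GTPases and their regulators had 107 and 98 (25.2% and 26.5%), with Tbc1d14 at 4.84 and 3.93 and Rapgef1 at 2.41 and 3.96. Zinc finger genes with Zfp symbols had 214 and 194 and overlap of 36.0% (29.9 to 42.6) and 37.6% (31.1 to 44.6), with Zfp446 at 4.26 and 4.83 and Zfp600 at 3.09 and 4.15. Some Zfp genes are close copies of each other, with the same limit as on chromosome 1. Solute carriers had 222 and 211 (27.03% and 27.5%), with Slc19a3, a thiamine transporter, at 5.12 and 5.37.

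Neuronal genes and chemosensory receptors, known for their use in other tissues, had the lowest densities. Neuronal adhesion, synapse and channel genes had 13 and 12 members in 73 genes, 9.91 (5.27 to 16.9) and 9.14 (4.72 to 15.97) per Mb, with 4 and 4 overlapped, Magi2 with folds of 4.44 and 4.91 and Dlg2 with 4.27 and 3.42. Olfactory and vomeronasal receptors had 18 and 17 members in 295 genes with eligible bases, 6.52 (3.86 to 10.3) and 6.16 (3.59 to 9.86) per Mb, with 6 and 6 overlapped, Vmn2r117 with 5.34 and 2.93 and Vmn2r58 with 4.27 and 4.40. Their shares overlapped were 30.8% (12.7 to 57.6) and 33.3% (13.8 to 60.9) for neuronal genes. For receptors they were 33.3% (16.3 to 56.3) and 35.3% (17.3 to 58.7). These wide intervals hold the shares of all members, and counts this small cannot place the classes near or far from them. Of the classes with at least 20 members, 9 of 14 in the KAT8-deficient list and 10 of 17 in the wild-type list had a share above that of all members.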

How the data were processed

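The deposited data are 1 peak list per library. The build mm10 and the tools DiffBind, MACS2 2.2.7.1 and Bowtie 0.12.8 are named, without their roles, per the submitters' processing notes. The sources used here give no peak calling settings, control library or read totals, so depth is unknown. Each deposited peak carries a score, a fold (the ratio to an estimated background), −log10 values of p-value and q-value, and a summit offset, all made by the authors. Position and strength here used the summit and the −log10 q-value.

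Gene ends were read from RefSeq (GRCm38.p6, no strand), and starts, strand and promoter windows from the RefSeq promoter table (17491 of 21883 genes matched, none on chromosome 18). Expected CpG was the product of C and G counts over window length. Peaks overlapped at 1 bp or more. Shares carry Wilson intervals and densities exact Poisson intervals; ratios of counts carry Poisson intervals on the log scale. Tools were Python 3.11.15, numpy 2.4.6, pandas 2.3.3, scipy 1.17.1, statsmodels 0.14.6 and matplotlib 3.10.9. On simulated data the code found the 29.9% of 58229 peaks that had been given a partner.

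The members, the 21 gene classes and the comparisons were chosen with earlier results of these data known. Named hosts are those of the 5 strongest overlapped and 5 strongest non-overlapped members of each list, the 5 genes with most members, up to 2 hosts per class and the peaks nearest the limit on strength; the others were named after their values were seen. 1 macrophage marker of the fixed list is not reported here. The class entries Tasl, Rigi and Pira6 matched no gene. Alternatives were other overlap rules, q and distance limits, gene filters and ranking by fold.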

Additional observations from a re-analysis of the deposited data

How the results depend on the processing

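No paired analysis was possible because each genotype had 1 library, and none could be left out. Values below give the KAT8-deficient before the wild-type list. Requiring 50% of the shorter peak lowered the share of members overlapped to 25.02% and 22.7%, and summits within 250 bp to 24.7% and 22.6%. With q under 0.05 in both lists it was 31.5% in the KAT8-deficient list, and with q under 0.05 for the member alone 43.9% and 39.8%. Keeping members over 2 kb from gene ends gave 28.9% and 25.9%. In the wild-type list, the limit of 5 kb gave 28.3% and the strongest 20000 peaks 29.4%. Without members near an annotated start, an alternative added after seeing the data, the shares were 26.5% and 24.2%. In the strongest decile, summits within 250 bp gave 69.3% and 67.2%, q under 0.05 in both lists 75.7% and 69.7%, and ranking by fold 75.98% in the wild-type list. The excess of hosts of at least 100 kb over hosts under 10 kb was 3.37 and 3.41 percentage points, 1.53 and 1.89 with summits within 250 bp, and 8.45 and 9.09 with q under 0.05 in both lists. The excess of the start side over the 3′ side was 11.8 and 9.32 points. Under alternatives added after seeing the data it was 9.11 and 6.22 with summits within 250 bp, 16.9 and 13.01 with q under 0.05 in both lists, 17.2 and 14.4 with q under 0.05 for the member, and 4.28 and 2.84 without members near an annotated start. Host genes in both lists numbered 1476 with q under 0.05 in both lists, against 1778 KAT8-deficient only and 2108 wild-type only. With the strongest 20000 peaks they numbered 1029, against 1567 KAT8-deficient only and 1547 wild-type only. In both settings common hosts were thus the smallest of these groups, while over all members they were the largest. Of all alternative values, 41 stayed within the interval of the reported value (or within 1.5 times the reported count), 32 moved outside it and 0 reversed, and the cause of these moves was not tested. Depth limits all weak peaks, and read totals are unknown.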
